A study of Mus musculus with 12 samples.

Results

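Expression of 9 genes that mark or fix the CD4, CD8 and helper lineages of T cells was followed in spleen T cells of WT and miR-214-/- mice given sham or angiotensin II (Ang II) infusion. They were chosen by name: the coreceptor genes Cd4, Cd8a and Cd8b1, the lineage factors Zbtb7b (ThPOK) and Runx3, and the effector factors Tbx21 (T-bet), Gata3, Eomes and Bcl6. All 9 were found among the 49315 genes of the table. The 4 groups of 3 libraries, 12 libraries in all, were WT sham, WT Ang II, miR-214-/- sham and miR-214-/- Ang II. The animals were male, 12 weeks old and of mixed S129 and C57 background from heterozygous crosses, and every one carried an osmotic minipump for 14 days, with vehicle in the sham groups and Ang II at 490 ng/kg/day in the others. The deletion was global, so that cells other than T cells lacked the microRNA too. Splenic T cells were taken by removing other cells with magnetic beads, and CD4+ and CD8+ cells were sequenced together. Polyadenylated RNA was counted, in which the microRNA is not measured, and the genotype was therefore taken from the labels alone.

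Most mature T cells carry either CD4, which binds MHC class II, or CD8, which binds MHC class I. On conventional CD8+ T cells CD8 is a dimer of alpha and beta chains. In the thymus ThPOK holds cells to the CD4 fate and represses the CD8 program, while Runx3 silences Cd4 and activates Cd8 genes in cells of the CD8 fate. In the periphery T-bet directs the Th1 program, GATA3 the Th2 program and BCL6 the follicular helper program, and Eomes acts with T-bet in memory and effector CD8+ cells. GATA3 is also needed for CD4 cells to form in the thymus. In bulk T cells the level of such a gene follows both how many cells carry it and how much RNA each holds, and fewer cells of a type cannot be told apart from less RNA per cell.

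MicroRNAs of this kind lower target transcripts mainly through matches of 3′ UTRs to their seed. The deleted miR-214-3p is shown with its seed, bases 2 to 8, in capitals, because its match was looked for in the 9 genes. The sequence is that of RefSeq, at chr1:162223438-162223459 on the plus strand of GRCm38.p6. The match, 7 letters of CCTGCTG on the transcript strand, was present once in the annotated 3′ UTR of Cd8a and once in that of Runx3, and these stretches follow with the match in capitals.
miR-214-3p: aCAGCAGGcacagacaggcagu
Cd8a: ttcaagtttCCTGCTGtcttatgta
Runx3: agcccacctCCTGCTGtgtgatgtc

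The match in Cd8a lay at chr6:71376996-71377002 on the plus strand of GRCm38, in a 3′ UTR of 2306 bases. That in Runx3 lay at chr4:135176793-135176799 on the plus strand, in a 3′ UTR of 2158 bases. The other 7 genes held none in the UTR of the transcript read. Among the 13105 tested genes with a UTR, 23.1% held a match, so that 2 of 9 was close to that share. A match of letters is a description and not a tested site.

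Of the 9 genes, 3 lay on chromosome 6, all of them coreceptor genes. Cd4 (ENSMUSG00000023274) lay on the minus strand at chr6:124864692-124888221, while Cd8b1 (ENSMUSG00000053044, chr6:71322788-71337494) and Cd8a (ENSMUSG00000053977, chr6:71373427-71379173) were neighbours on the plus strand. Antisense or other genes overlapped exons of Zbtb7b, Gata3, Eomes and Bcl6, over 0.31% to 3.9% of exon length, and with counting of unstated strand their reads could not be separated there.

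Each library held between 21126874 and 29605988 counts. The lowest count of any of the 9 genes in any library was 304, for Tbx21 in WT Ang II replicate 3, so that none was near the limit of detection and all 9 passed the filter on low counts in every comparison. Levels below are CPM, counts scaled to library size with TMM factors. The summed level of 10 T cell markers was between 2639 and 4711 CPM over the libraries, and none of the markers of other cell types that were looked at was at 0 in all libraries. In the WT groups neutrophil markers (8 genes summed) were between 194 and 245 CPM in sham and between 1074 and 3243 CPM in Ang II. Red-cell precursor markers (9 genes) were between 315 and 497 CPM in WT sham and between 773 and 5154 CPM in WT Ang II. In miR-214-/- the neutrophil markers were between 229 and 924 CPM in sham and between 600 and 2968 CPM in Ang II, and the red-cell precursor markers were between 278 and 413 CPM in sham and between 483 and 4346 CPM in Ang II. The highest red-cell precursor levels were those of WT Ang II replicate 1 and miR-214-/- Ang II replicate 2, each above the other libraries of its group.

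To compare levels between genes, CPM was divided by the exon length in kb. In WT sham Cd8b1 was highest at 284 ± 42.0 CPM per kb (SD, n = 3). Cd8a at 143 ± 15.4 and Cd4 at 136 ± 6.03 CPM per kb followed, and their ranges over the libraries overlapped. Runx3 at 34.1 ± 7.17 CPM per kb stood above Zbtb7b at 24.2 ± 3.63. The ranges of Zbtb7b, Eomes (18.3 ± 3.21 CPM per kb) and Gata3 (17.5 ± 1.29) overlapped from neighbour to neighbour. Tbx21 had 9.76 ± 1.71 CPM per kb and Bcl6, the lowest, 5.07 ± 0.217. The coreceptor genes were the 3 highest and Tbx21 and Bcl6 the 2 lowest in each of the 4 groups. Between groups the order changed only for Cd4 and Cd8a and for Eomes and Gata3, and each of these pairs overlapped in every group.

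**Figure D1:**
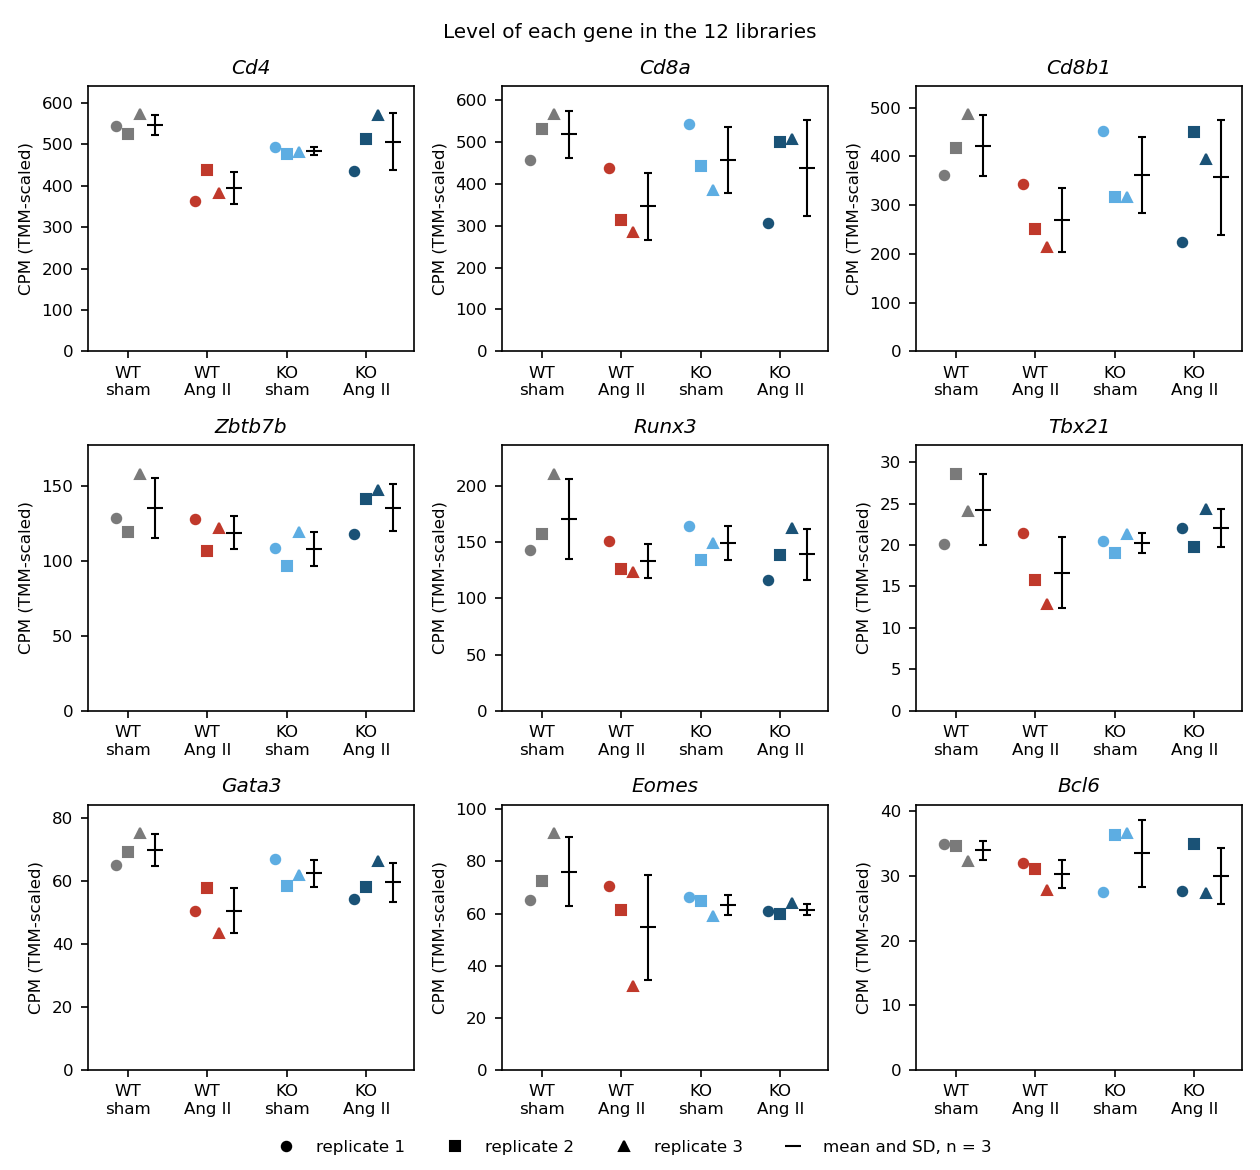
Level of each gene in every library, in CPM after TMM scaling on linear axes that start at 0. Points are single libraries of the 4 groups, shaped by replicate number, and bars are the mean and SD of 3 libraries; the 3 WT Ang II libraries lie below all WT sham libraries for Cd4, Cd8a, Cd8b1, Gata3 and Bcl6, and the miR-214-/- groups overlap for all 9 genes.

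The first comparison asked how the lineage genes stood in WT T cells after Ang II infusion. Under TMM scaling all 9 had a negative log2 fold change against sham, and relative to CD3 transcripts, described further on, 7 of 9 had a positive one. The TMM values ran from -0.14 for Bcl6 to -0.62 for Cd8b1, with a median of -0.45 beside -0.02 over all 16012 genes tested, 51.6% of which were negative. Cd4 and Gata3 passed the test and fell. That is 2 of 9, where 18.8% of all genes tested were called, 7.06% as lower and 11.7% as higher. In the same comparison 8 of 10 T cell markers were called lower, among them Cd3d (-0.59), Lck (-0.55), Cd3g (-0.54) and Cd247 (-0.52), with a list median of -0.50.

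Cd4 was 545, 524 and 573 CPM in the WT sham libraries and 363, 437 and 383 CPM in the WT Ang II libraries. Every WT Ang II value was below every WT sham value. The log2 fold change was -0.45 (SE 0.0830, adjusted p = 0.0143, edgeR quasi-likelihood test with Benjamini-Hochberg adjustment). Without WT sham replicate 1 the adjusted p of Cd4 was 0.0529, and without WT Ang II replicate 3 it was 0.0757.

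The CD8 chains had larger and more variable differences than Cd4. Cd8a was 457, 532 and 566 CPM in WT sham and 438, 314 and 286 CPM in WT Ang II. Its groups did not overlap, but WT Ang II replicate 1 was close to the lowest sham library, and the log2 fold change of -0.56 (SE 0.169) did not pass the threshold, with an adjusted p of 0.0595. Cd8b1, the beta chain found on conventional CD8+ T cells, was 362, 417 and 486 CPM in WT sham and 343, 251 and 215 CPM in WT Ang II. Here too the groups stood apart with WT Ang II replicate 1 nearest to sham. The log2 fold change of Cd8b1 was -0.62 (SE 0.185, adjusted p = 0.0564). Both CD8 chains were called lower by DESeq2, with adjusted p of 0.00741 for Cd8a and 0.00486 for Cd8b1, and both were called without WT Ang II replicate 1, with adjusted p of 0.00510 and 0.00809.

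The factors of the CD4 and CD8 choice differed less between the WT groups. Zbtb7b was 129, 119 and 158 CPM in sham and 128, 107 and 122 CPM in Ang II, with overlapping groups and a log2 fold change of -0.16 (SE 0.123, adjusted p = 0.379). Runx3 was 143, 157 and 211 CPM in sham and 151, 126 and 123 CPM in Ang II. Its groups overlapped through WT Ang II replicate 1, and the log2 fold change was -0.33 (SE 0.153, adjusted p = 0.169). Without WT sham replicate 3, the highest of the WT libraries for both genes, the log2 fold changes were -0.045 for Zbtb7b and -0.16 for Runx3.

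Among the effector factors Gata3 fell under TMM scaling. It was 64.9, 69.0 and 75.1 CPM in WT sham and 50.5, 57.7 and 43.3 CPM in WT Ang II, with no overlap. Its log2 fold change was -0.44 (SE 0.107, adjusted p = 0.0312). The call of Gata3 was lost when any of 5 of the 6 libraries was left out, with adjusted p from 0.0509 to 0.103, and it was kept only without WT Ang II replicate 2.

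Tbx21 was 20.1, 28.6 and 24.1 CPM in WT sham and 21.4, 15.8 and 12.9 CPM in WT Ang II. WT Ang II replicate 1 was again within the sham range, and the log2 fold change of -0.52 (SE 0.215) had an adjusted p of 0.134. Eomes was 65.0, 72.4 and 90.9 CPM in sham and 70.7, 61.4 and 32.0 CPM in Ang II. Over the 12 libraries its spread was the widest of the 9 genes, the highest being 2.84 times the lowest, and the log2 fold change was -0.46 (SE 0.274, adjusted p = 0.275). It was -0.19 without WT Ang II replicate 3 and -0.68 without WT Ang II replicate 1. NK cells also express Tbx21 and Eomes, and the summed level of 5 NK cell markers was between 35.9 and 86.0 CPM in WT sham and between 24.5 and 43.4 CPM in WT Ang II. The part of NK cells in these values was not tested. Bcl6 was 34.9, 34.6 and 32.3 CPM in sham and 32.0, 31.1 and 27.9 CPM in Ang II. All 3 Ang II values of Bcl6 were below the sham values by little, with a log2 fold change of -0.14 (SE 0.0907, adjusted p = 0.301). The groups did not overlap for 5 of the 9 genes, all lower in Ang II, where 21.4% of the genes tested in all groups stood apart in that direction.

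Since T cell markers were also lower in the WT Ang II libraries, the 9 genes were set against the transcripts of CD3, the signalling part of the T cell receptor that CD4+ and CD8+ cells share. Cd3d, Cd3e, Cd3g and Cd247 summed to between 1379 and 1581 CPM in WT sham and between 908 and 1082 CPM in WT Ang II. With library sizes set to these counts the median log2 fold change of all genes moved from -0.02 to 0.52, and values are to be read against that shift. Cd4 had a log2 fold change of 0.08 (adjusted p = 0.578), Gata3 of 0.08 (adjusted p = 0.536), Cd8a of -0.04 and Cd8b1 of -0.10. Per 1000 CD3 counts, Cd4 had 369 ± 24.5 in WT sham and 390 ± 47.4 in WT Ang II (SD, n = 3), and on this scale the WT groups overlapped for Cd4, Cd8a, Cd8b1 and Gata3. Zbtb7b, at 0.37 (adjusted p = 0.0460), and Bcl6, at 0.38 (adjusted p = 0.0381), were called higher on this scale, where 52.5% of all genes were called higher and 0.0562% lower. Relative to the median of all genes, both stayed below 0. The part of non-T cells in these differences was not tested.

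**Figure D2:**
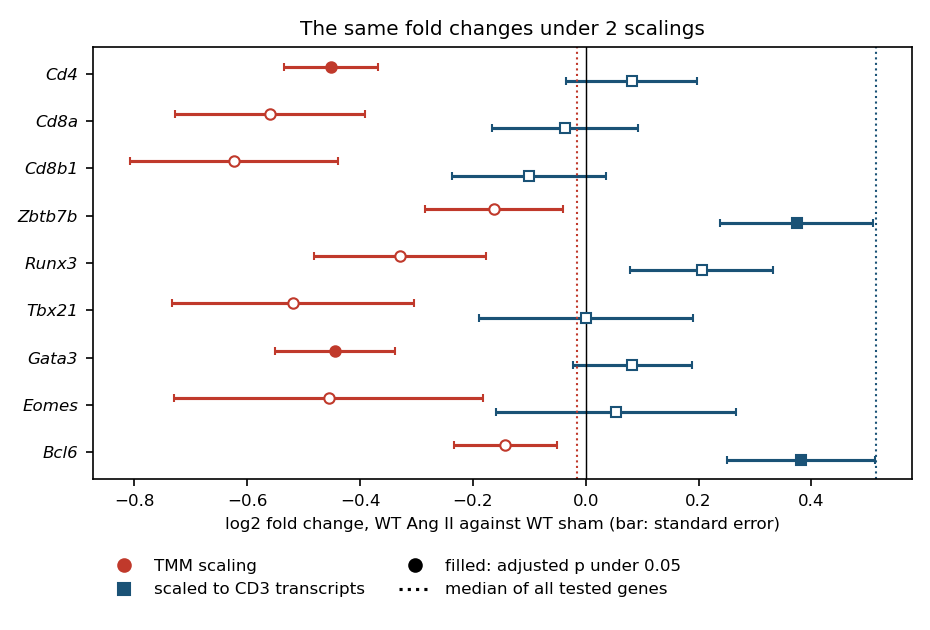
Log2 fold change of each gene in WT, Ang II against sham, with standard errors, under TMM scaling (circles) and with library sizes set to CD3 transcripts (squares); filled symbols have an adjusted p under 0.05 and dotted lines are the medians of all tested genes, -0.02 and 0.52. All 9 genes are negative under TMM scaling and 7 of 9 are positive under CD3 scaling, all of them to the left of the median of all genes.

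The same infusion was then compared in miR-214-/- mice. None of the 9 genes was called, and none of the 15937 genes tested was (0.0%), although 1939 genes had an unadjusted p under 0.05 and DESeq2 called 277 genes, none of them among the 9. The groups overlapped for all 9 genes, where 8.68% of genes stood apart as higher and 10.3% as lower. Cd4 was 494, 477 and 481 CPM in miR-214-/- sham and 435, 512 and 572 CPM in miR-214-/- Ang II. The sham libraries lay close together and inside the range of the Ang II libraries, and the log2 fold change was 0.07 (SE 0.116, adjusted p = 0.830).

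Cd8a was 542, 442 and 386 CPM in miR-214-/- sham and 305, 500 and 508 CPM in miR-214-/- Ang II. Cd8b1 was 452, 317 and 317 CPM in sham and 225, 451 and 395 CPM in Ang II. Replicate 1 of miR-214-/- Ang II had the lowest level of both chains among the miR-214-/- libraries, and the log2 fold changes of -0.06 (SE 0.218) for Cd8a and -0.02 (SE 0.267) for Cd8b1 turned positive without it, at 0.14 and 0.22.

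Zbtb7b had the smallest p of the 9 genes here. It was 109, 96.6 and 119 CPM in miR-214-/- sham and 118, 141 and 147 CPM in miR-214-/- Ang II. The groups overlapped by a single pair of libraries, and the log2 fold change of 0.33 (SE 0.112) had an unadjusted p of 0.0216 and an adjusted p of 0.339. Runx3 was 164, 134 and 149 CPM in sham and 117, 139 and 163 CPM in Ang II, with a log2 fold change of -0.10 (SE 0.133).

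The effector factors overlapped between the miR-214-/- groups. Gata3 was 66.8, 58.5 and 61.8 CPM in sham and 54.2, 57.9 and 66.4 CPM in Ang II, a log2 fold change of -0.06 (SE 0.0949). Tbx21 was 20.4, 19.0 and 21.4 CPM in sham and 22.1, 19.8 and 24.3 CPM in Ang II, a log2 fold change of 0.13 (SE 0.120). Eomes was the steadiest, at 66.3, 64.7 and 58.9 CPM in sham and 60.9, 59.7 and 64.0 CPM in Ang II. Bcl6 was 27.5, 36.4 and 36.7 CPM in sham and 27.8, 35.0 and 27.3 CPM in Ang II, a log2 fold change of -0.15 (SE 0.152).

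**Figure D3:**
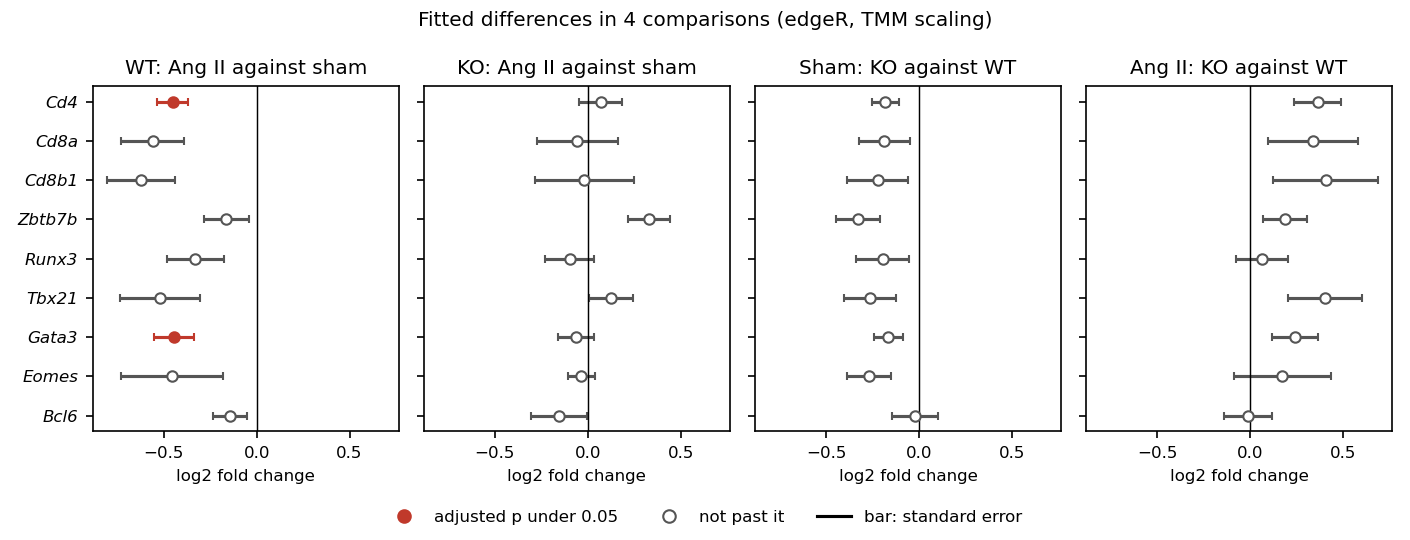
Log2 fold changes of the 9 genes in the 4 pairwise comparisons, with standard errors, from edgeR with TMM scaling. Filled symbols have an adjusted p under 0.05, which Cd4 and Gata3 reached in WT and no gene reached elsewhere; the WT comparisons and the genotype comparisons share libraries, so the panels are not independent of each other.

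Whether the response differed between genotypes was tested by the interaction over all 12 libraries. No member was called, where 0.00596% of 16770 genes tested were (1 gene). The interaction of Cd4 was 0.54 on the log2 scale (SE 0.149), with an unadjusted p of 0.00406 and an adjusted p of 0.213. Its log2 fold change was -0.45 in WT and 0.07 in miR-214-/-. Zbtb7b was at 0.51 (SE 0.179, adjusted p = 0.255), Tbx21 at 0.66 (SE 0.259, adjusted p = 0.285) and Gata3 at 0.40 (SE 0.158, adjusted p = 0.289), and under CD3 scaling these were 0.03, 0.22 and -0.06. These 4 genes had an unadjusted p under 0.05, but none had an adjusted p under 0.05. By this test the change of Cd4 in WT was thus not shown to differ from that in miR-214-/-. DESeq2 called Cd4, at 0.51 (adjusted p = 0.0412), and so did edgeR without miR-214-/- Ang II replicate 1, at 0.64 (adjusted p = 0.0247). On the CD3 scale the interaction of Cd4 was 0.06 (adjusted p = 0.794).

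Between genotypes at sham all 9 genes had a negative log2 fold change in miR-214-/- against WT under TMM scaling, from -0.02 for Bcl6 to -0.33 for Zbtb7b. So did 52.4% of all genes tested and 9 of 10 T cell markers. On the CD3 scale Bcl6 turned to 0.09 and the other 8 stayed negative. None of the 9 was called, where 0.0251% of 15913 genes tested were (4 genes). For Cd4 and Zbtb7b the 3 miR-214-/- sham libraries were below all WT sham libraries under TMM scaling, where 4.75% of genes stood apart in that direction. Cd4 differed by -0.18 (SE 0.0724, unadjusted p = 0.0382, adjusted p = 0.711). The difference of Zbtb7b was -0.33 (SE 0.118, unadjusted p = 0.0258, adjusted p = 0.701).

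After Ang II, 8 of the 9 genes were positive in miR-214-/- against WT under TMM scaling and 2 of 9 under CD3 scaling. Under TMM scaling 49.8% of all genes tested were negative, while 0 of 10 T cell markers were. Neither the 9 nor any of 16215 genes tested were called by edgeR (0.0%), with 1388 genes at an unadjusted p under 0.05. DESeq2 called 33 genes, none of them among the 9. Cd4 had the smallest p, with a log2 fold change of 0.36 (SE 0.127, unadjusted p = 0.0254, adjusted p = 0.569). Tbx21 was at 0.40 (SE 0.201), Cd8b1 at 0.41 (SE 0.283) and Bcl6 at -0.01 (SE 0.128). The median of all genes under CD3 scaling was -0.36 in this comparison. The 2 genes with a miR-214-3p match were not called between genotypes: Cd8a was at -0.19 (SE 0.137) in sham and 0.34 (SE 0.242) in Ang II, and Runx3 at -0.20 (SE 0.144) and 0.06 (SE 0.14).

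Ratios within a library do not depend on scaling, and 3 were compared in the 4 pairs of groups, with exact two-sided permutation tests whose smallest possible p with 3 against 3 is 0.1. The ratio of Cd8a to Cd4 follows the balance of CD8 and CD4 transcripts. Its log2 value was -0.26, 0.02 and -0.02 in WT sham and 0.27, -0.48 and -0.42 in WT Ang II. WT Ang II replicate 1 was the highest of the 12 libraries and the other 2 were among the lowest. The group means, -0.08 ± 0.151 and -0.21 ± 0.418 (SD, n = 3), differed by -0.13 (SE 0.256, exact permutation p = 0.8). The difference was -0.37 without WT Ang II replicate 1 and 0.0080 without WT Ang II replicate 2. In miR-214-/- the means were -0.10 ± 0.227 in sham and -0.24 ± 0.245 in Ang II, with an exact permutation p of 0.5.

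Zbtb7b and Runx3 oppose each other in the choice of fate. The log2 ratio of Zbtb7b to Runx3 was -0.60, -0.48 and -0.33 in miR-214-/- sham and 0.01, 0.03 and -0.14 in miR-214-/- Ang II. All 3 Ang II libraries were above the sham libraries, by 0.43 between means (SE 0.0956, exact permutation p = 0.1, 0.4 after adjustment over 4 comparisons). In WT the ratio was -0.16, -0.40 and -0.42 in sham and -0.23, -0.24 and -0.02 in Ang II, a difference of 0.16 (SE 0.111, exact permutation p = 0.3) with overlapping groups. The ratio of Cd8b1 to Cd8a, which compares the beta with the alpha chain, stayed between -0.48 and -0.15 on the log2 scale in all libraries, and its exact permutation p was between 0.4 and 0.9.

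**Figure D4:**
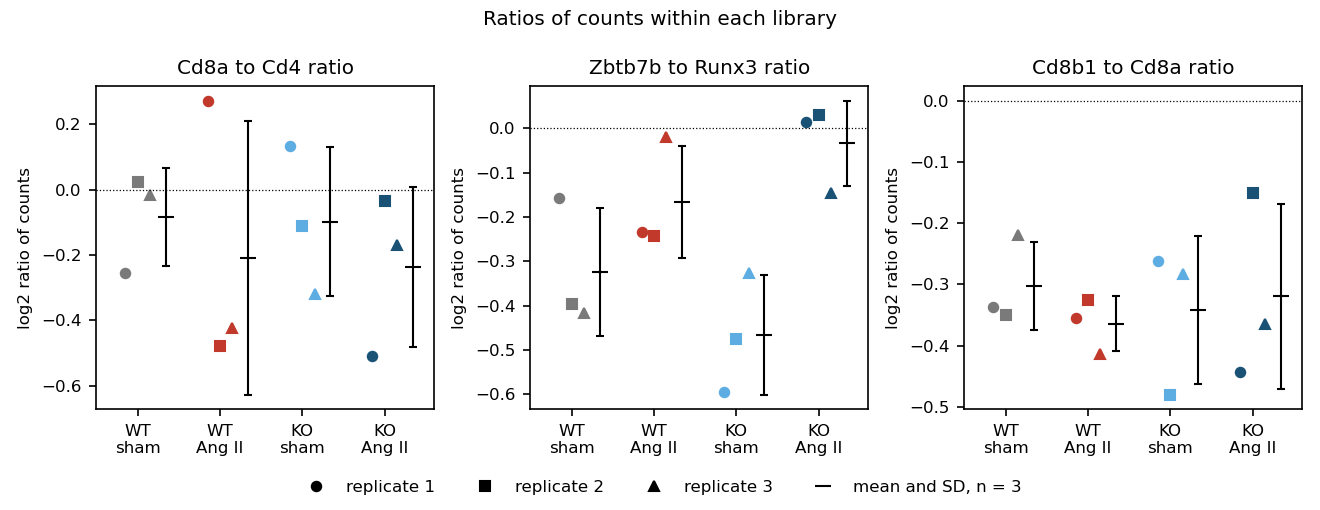
Log2 ratio of counts within each library for Cd8a to Cd4, Zbtb7b to Runx3 and Cd8b1 to Cd8a in the 4 groups, with mean and SD of 3 libraries; the vertical axes differ between panels. The Zbtb7b to Runx3 ratio of the 3 miR-214-/- Ang II libraries, from -0.14 to 0.03, lies above that of the 3 miR-214-/- sham libraries, from -0.60 to -0.33, while the groups overlap in the other 3 comparisons made of this ratio and in the 4 of each other ratio.

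How the genes moved with each other over the 12 libraries was read in 9 pairs, with permutation tests of 100000 resamples and adjustment over the 9. The libraries share TMM scaling and the drop of T cell transcripts in WT Ang II, so the correlation was also taken after removing group means. Cd8a and Cd8b1, the chains of 1 receptor, had r = 0.98 and rho = 0.958 (both with p = 1e-05, the smallest these permutations can give, and adjusted p = 9e-05), r = 0.968 within groups and r = 0.956 without the 2 libraries farthest from the median. Gata3 and Cd4 had r = 0.887 and rho = 0.881 (p = 0.00015 and 0.00034, adjusted p = 0.000675 and 0.00114), r = 0.728 within groups and 0.860 without the 2 farthest. Cd8a and Runx3 had r = 0.816 and rho = 0.874 (p = 0.0004 and 0.00038, adjusted p = 0.0012 and 0.00114), with 0.762 within groups and 0.716 without the 2 farthest.

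Tbx21 and Eomes, which are related T-box factors, had r = 0.784 and rho = 0.552 (p = 0.00695 and 0.0666, adjusted p = 0.0125 and 0.0749). Within groups r was 0.698 (permutation p = 0.0129, adjusted p = 0.029). As these within-group p-values are likely too small, no pass was read from them. Without the 2 farthest libraries the pooled r was 0.449, so that its size rested partly on them. Cd8a and Eomes had r = 0.705 and rho = 0.727 (p = 0.00068 and 0.00951, adjusted p = 0.00153 and 0.0171), with 0.537 within groups (adjusted p = 0.12) and 0.559 without the 2 farthest. Tbx21 and Runx3 had r = 0.59 and rho = 0.622 (p = 0.0492 and 0.0337, adjusted p = 0.0633 and 0.0505), with 0.468 within groups and 0.591 without the 2 farthest. Cd4 and Cd8a had r = 0.70 and rho = 0.811 (p = 0.0116 and 0.00241, adjusted p = 0.0174 and 0.00542), but 0.395 within groups (adjusted p = 0.262) and 0.843 without the 2 farthest. Cd4 and Zbtb7b, the factor of the CD4 fate, had r = 0.414 and rho = 0.559 (p = 0.182 and 0.0631, adjusted p = 0.205 and 0.0749), with 0.334 within groups and 0.753 without the 2 farthest libraries. Bcl6 and Tbx21, which antagonise each other in helper cells, had r = 0.205 and rho = -0.189 (p = 0.534 and 0.556, adjusted p = 0.534 and 0.556), with 0.022 within groups and 0.422 without the 2 farthest.

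**Figure D5:**
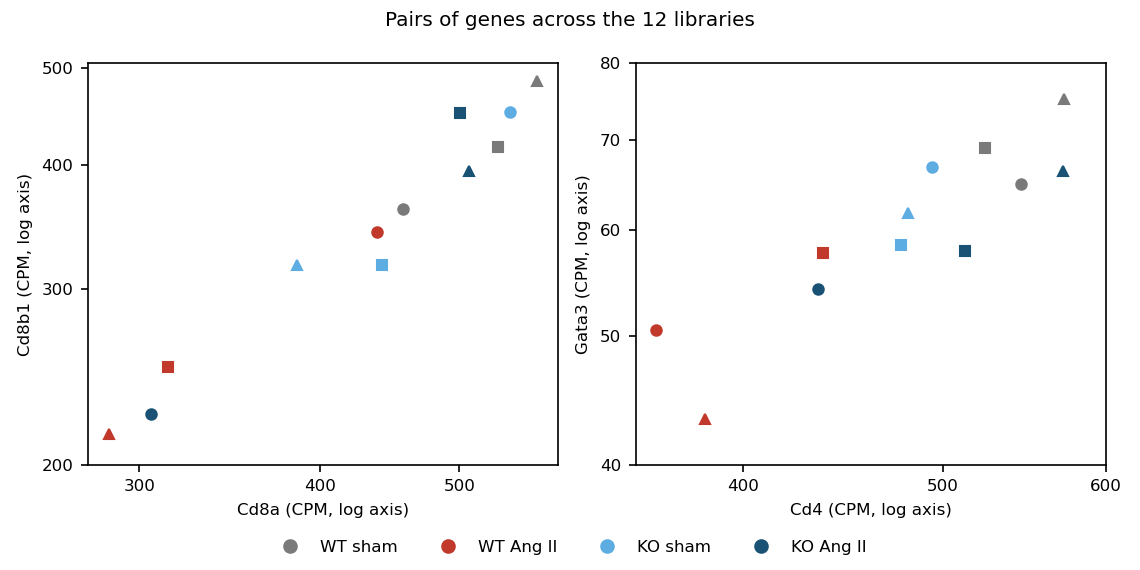
Cd8b1 against Cd8a and Gata3 against Cd4 in the 12 libraries, in CPM on log axes, coloured by group and shaped by replicate. The CD8 chains lie along a line in all groups, with r = 0.98, and the 3 WT Ang II libraries and miR-214-/- Ang II replicate 1 are at the lower left of the Cd4 and Gata3 panel, where r was 0.887.

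By the highest Pearson r over the 12 libraries among 12290 genes, given as a description, the genes most like Cd4 were Hivep2 (0.972), Chd8 (0.950) and Cd5 (0.948), and those most like Gata3 were Cd5 (0.967), Spata13 and Rbck1. Cd8a was most like Cd8b1 (0.980), Snrk (0.972) and Kremen1 (0.961), and Cd8b1 most like Selplg (0.984), Cd8a and Snrk (0.975). The other nearest genes were Nrp2 (0.949), Rara and Lpar5 for Zbtb7b, Dlg4 (0.965), Fmnl1 and Dhx8 for Runx3, Paxx (0.899), Rinl and Cyp4f17 for Tbx21, Samd3 (0.895), Camk2n1 and Trpm1 for Eomes, and Eif2ak3 (0.860), Klc4 and Ss18l1 for Bcl6.

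Other genes of these pathways were counted in lists, under TMM scaling. The counts in WT are to be read beside all genes tested, 7.06% of which were called lower and 11.7% higher. Of the 10 T cell markers 8 were called lower. Of 12 regulators of the CD4 and CD8 choice, 5 were called lower and 1 higher in WT Ang II. Those lower included Bcl11b (-0.68, SE 0.0874, adjusted p = 0.00509), a factor that keeps T cell identity, Lef1 (-0.66, SE 0.0969, adjusted p = 0.00734) of the TCF family, and the chromatin organiser Satb1 (-0.65, SE 0.0681, adjusted p = 0.00264). Myb, which is also high in blood precursors, was higher (1.0, SE 0.228, adjusted p = 0.0268). The list median was -0.16. Of 10 partners and antagonists of the 9 factors 4 were called lower, namely Klf2 (-0.86), Id3 (-0.82), Bach2 (-0.62) and Foxo1 (-0.48), of which Klf2 and Foxo1 are known for keeping naive T cells in circulation. None was called higher.

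Of 11 Th1 genes 3 were lower, among them Stat4 (-0.42), which carries the IL-12 signal, and Il18r1 (-0.37), and Hlx was higher (1.45). Of 8 Th2 genes tested 2 were lower, Il4ra (-0.32) and Stat6 (-0.26), which carry the IL-4 signal, and Il1rl1, the IL-33 receptor also found on mast cells and basophils, was higher (1.65). In that comparison basophil and mast cell markers were called higher in 5 of 5 genes, and their part in the value of Il1rl1 was not tested. None of 8 Th17 genes tested was called, Irf4 (0.54, SE 0.238, unadjusted p = 0.0575) and Ahr (0.49, SE 0.223, unadjusted p = 0.0636) having the smallest p.

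Of 11 follicular helper genes 4 were lower, Cd40lg (-0.69), the ligand by which helper cells act on B cells, Sh2d1a (-0.43), Il6st (-0.40) and Il6ra (-0.37), and none was higher. Prf1, which encodes perforin, was the 1 called of 10 T-box target and memory CD8 genes (-0.84, SE 0.14, adjusted p = 0.0105). Under CD3 scaling, where 52.5% of all genes tested were called higher in WT Ang II, so were 7 of 12 regulators of the choice, 6 of 11 Th1, 6 of 8 Th2, 4 of 8 Th17, 4 of 11 follicular helper, 5 of 10 partner and 0 of 10 T-box target and memory CD8 genes, and of all these lists only 1 partner gene was called lower. In the other 3 pairwise comparisons and in the interaction no gene of these 7 lists was called. The smallest p in each were those of Cxcr5 (0.40, unadjusted p = 0.00574) for miR-214-/- Ang II against sham, Foxo1 (-0.34, unadjusted p = 0.00546) for the genotypes at sham, Btla (0.41, unadjusted p = 0.00740) for the genotypes after Ang II and Bcl11b (0.64, unadjusted p = 0.00198) for the interaction.

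Markers of other cells and cell division genes moved in the same WT comparison. Cell division genes mark no single cell type, and which cells held them was not tested. All 8 neutrophil markers, all 5 basophil and mast cell markers, all 6 cell division genes and 4 of 9 red-cell precursor markers were called higher, with medians from 1.68 for basophils and mast cells to 3.18 for neutrophils. Of 7 dendritic cell markers 2 were called higher, and of the 3 germinal centre B cell markers tested 2 were, Gcsam (1.75) and Mybl1 (0.75). Germinal centre B cells also express Bcl6, and their 5 markers summed to between 16.9 and 20.9 CPM in WT sham and between 24.7 and 25.7 CPM in WT Ang II. None of 8 B cell, 7 macrophage or 3 tested NK cell markers was called. No marker of any of these lists was called in the other comparisons, in each of which edgeR called at most 4 of all genes tested. In miR-214-/- Ang II against sham the list medians were 2.48 for red-cell precursors, 1.43 for neutrophils and 1.37 for B cells, with 0 negative genes. Those of macrophage and NK cell markers were -0.11 and -0.22, beside 0.03 over all genes tested. The mean level of the red-cell precursor markers was set as a covariate of the interaction fit, where no gene of the 9 was called with or without it. With the covariate the interaction of Cd4 was 0.50 (SE 0.18, adjusted p = 0.379) and that of Zbtb7b 0.53 (SE 0.214, adjusted p = 0.400), and these 2 genes had an unadjusted p under 0.05, beside 4 without it. The interaction of Eomes went from 0.43 to 0.70 and that of Bcl6 from 0.0036 to 0.27. The part of the other cell types in the values of the 9 genes was not tested, nor was that of red-cell precursors in the pairwise comparisons.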

How the data were processed

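Expression was measured by RNASeq in spleen T cells of 12 mice, 3 in each of 4 groups taken from the labels. The deposited values were raw counts of reads on each gene, obtained by the authors with featureCounts (Subread 1.5.2) after mapping to GRCm38 with STAR. Counting was limited to exonic reads with a single mapping position, which loses reads shared by near-identical genes. Strand setting and annotation release were not given in the sources used here. All 12 columns were used, and 0 columns were of other samples. Of 49315 identifiers 48970 were matched to symbols of GENCODE M21 and had an exon length. Among 12 replicate pairs within groups, 0 were identical, and the lowest chi-square per degree of freedom was 9.68.

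Whole-table fits were made in R 4.3.3 with edgeR 4.0.16 (filterByExpr on the groups compared, TMM scaling, quasi-likelihood test, Benjamini-Hochberg adjustment over all genes tested). Calls needed an adjusted p under 0.05 and no minimum fold. Pairwise comparisons used the 6 libraries compared, and the interaction all 12. Fits were tested on simulated data. Ratios were log2 ratios of counts, compared with exact permutation tests, and correlations used log2 CPM with a prior count of 2 (Python 3.11.15, scipy 1.17.1). DESeq2 1.42.0, other scalings and filters, a replicate block, a red-cell precursor covariate in the interaction, and leaving out each library were alternatives. Scaling to 10 T cell markers was added after seeing the data. The labels make each library a separate sample, and p-values measure only the spread between these.

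The 9 genes, the pathway lists and the marker lists were chosen with earlier results of these data known. From a list, every called gene was named where 4 or fewer were called, otherwise the 4 of largest absolute fold change, and where none was called the 2 of smallest p. An item that this rule would name is not reported here. The 3 genes of highest Pearson r with each member were named among genes of mean log2 CPM over 1. Of genes without a call in the other comparisons, and of called markers, a few were named that were chosen after their values were seen. The 3′ UTRs were read from GENCODE M21 on GRCm38.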

Additional observations from a re-analysis of the deposited data

How the results depend on the processing

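With 3 libraries a group, the calls in WT were near the threshold. Of the 9 genes 2 were called in WT Ang II against sham, 4 by DESeq2 and without a filter on low counts (Cd8a and Cd8b1 in addition), 1 with a replicate block (Gata3 at -0.45, adjusted p = 0.0581) and 0 with a fold threshold of 1 on the log2 scale. Leaving out 1 library gave between 0 and 4. It gave 0 without WT sham replicate 1 or WT Ang II replicate 3, 1 without WT sham replicate 2 or 3, and 4 without WT Ang II replicate 1, Tbx21 among them. The calls over all genes changed too. They were 3009 of 16012 tested in the main fit, 2861 of 28524 without a filter and 2381 of 16012 with the block. With the fold threshold 1169 of 16012 were called, and by DESeq2 3740 of the 16343 genes given an adjusted p. With a library left out, the calls over all genes were 1139 of 16638 without WT sham replicate 1 and 946 of 16611 without WT Ang II replicate 3. Without WT sham replicate 2 they were 1587 of 16469, and without WT sham replicate 3 they were 1381 of 16807. Without WT Ang II replicate 1 they were 3590 of 16431. None of the 9 genes was called lower relative to CD3 transcripts or to 10 T cell markers. There 2 and 1 were called higher, which is the opposite direction. For the interaction 1 gene was called by DESeq2, and between 0 and 1 with a library left out. The 1 was Cd4 without miR-214-/- Ang II replicate 1, where 919 of 17172 genes tested were called. The other 3 comparisons had 0 of 9 under every alternative run. Whether the replicate numbers pair libraries is not given in the labels. Correlations of same-numbered deviations were between -0.56 and 0.201, and those of differently numbered ones between -0.363 and 0.481. With ranges that wide in both, this could not decide it. The block changed no other call of the 9 genes. DESeq2 called 277, 94, 33 and 444 genes in miR-214-/- Ang II against sham, between genotypes at sham and after Ang II, and in the interaction, where edgeR called 0, 4, 0 and 1. In WT it called 3740 genes and edgeR 3009. Scaling to CD3 transcripts called 8409 genes higher and 9 lower in WT, beside 1878 and 1131 under TMM, and scaling to T cell markers 7942 and 7. Other causes of these changes were not tested.

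Sign changes among the 9 genes came mostly from the T cell scalings. In WT, log2 fold changes under CD3 and T cell marker scaling were 0.081 and 0.075 for Cd4, 0.37 and 0.37 for Zbtb7b, 0.21 and 0.20 for Runx3, 0.082 and 0.075 for Gata3, 0.054 and 0.046 for Eomes, and 0.38 and 0.37 for Bcl6, and 0.00066 under CD3 scaling for Tbx21. In miR-214-/- they were 0.034 and 0.0100 for Cd8b1 and 0.056 and 0.025 for Eomes, and under CD3 scaling 0.0071 for Cd8a and 0.021 for Gata3. Between genotypes at sham, Gata3 was at 0.015 under T cell marker scaling, and Bcl6 at 0.012 with library size alone, 0.088 under CD3 and 0.17 under T cell marker scaling. After Ang II they were -0.19 and -0.14 for Zbtb7b, -0.31 and -0.26 for Runx3, -0.12 and -0.071 for Gata3, and -0.16 and -0.10 for Eomes, and under CD3 scaling -0.013 for Cd4 and -0.042 for Cd8a. In the interaction they were -0.22 and -0.25 for Runx3, -0.062 and -0.085 for Gata3, -0.47 and -0.49 for Bcl6, and -0.021 under T cell marker scaling for Eomes. The interaction of Bcl6, near 0, was also -0.024 by DESeq2, -0.022 with RLE scaling, -0.072 with library size alone, -0.0052 without a filter and -0.012 with at least 10 counts in every library.

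Leaving out 1 library, the sign was not fixed for Cd4 (-0.031 to 0.16), Cd8a (-0.18 to 0.14), Cd8b1 (-0.23 to 0.22) and Runx3 (-0.23 to 0.011) in miR-214-/- Ang II against sham, for Bcl6 between genotypes at sham (-0.084 to 0.10) and after Ang II (-0.13 to 0.056), for Runx3 (-0.059 to 0.17) and Eomes (-0.091 to 0.41) after Ang II, and for Bcl6 in the interaction (-0.12 to 0.072). The log2 ratio of Cd8a to Cd4 ran from -0.37 to 0.0080 in WT, -0.13 to 0.096 between genotypes at sham and -0.16 to 0.21 after Ang II, and that of Cd8b1 to Cd8a from -0.062 to 0.084 in miR-214-/-, -0.079 to 0.031 at sham and -0.039 to 0.11 after Ang II. None of these was a call.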
